A study of Mus musculus with 48 samples.

Results

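Anti-PD-1 was compared with an isotype control antibody in primary mouse sarcomas that had received 20 Gy, with 8 tumours given anti-PD-1 and 8 given isotype. These are 16 of the 48 bulk RNA-seq tumours in the series, picked by their labels for tumour kind, dose and antibody. All 16 arose in p53FL/FL mice of strain 129/SvJae. Adeno-Cre, an adenovirus that delivers the recombinase removing the floxed p53 alleles, was injected into the calf muscle at 6 to 10 weeks of age, and 300 µg of the carcinogen MCA followed. Both groups therefore carried the p53 deletion, MCA exposure and radiation, and differed by label only in the antibody. At about 150 mm3 each mouse received 200 µg of muDX400, a murine anti-PD-1 antibody, or of isotype by intraperitoneal injection. The whole left hind limb was irradiated directly afterwards, and the tumour was taken 3 days later. No cell type is named as the target of the virus, and each tumour is from its own animal, so the spread within a group includes how each tumour formed. The comparison asks what adding PD-1 blockade to radiation altered in the tumour's RNA on day 3.

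PD-1 is a receptor on activated T cells. Its ligands PD-L1 and PD-L2, on tumour cells and myeloid cells, pass a signal through it that dampens T cell receptor and CD28 signalling, and a blocking antibody prevents this. T cells released in this way make interferon gamma, which raises MHC molecules, chemokines such as CXCL9 and PD-L1 itself in neighbouring cells. Radiation can add damaged DNA that is sensed by cGAS and STING and leads to type I interferon. The gene groups below follow these steps, from T and NK cells through interferon responses and antigen presentation to myeloid cells.

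Values are counts-per-million (CPM) scaled between libraries, given as the lowest, median and highest of the 8 tumours of a group. Log2 fold changes are anti-PD-1 relative to isotype, with standard error (SE), from edgeR's quasi-likelihood test across 17770 genes. No gene passed an adjusted p of 0.05 in that test (0 of 17770, percent called 0), and the lowest adjusted p was 0.549. At an unadjusted p below 0.05 there were 1443 genes, 8.12% of those tested, 914 of them higher (5.14%) and 529 lower (2.98%) with anti-PD-1. Without anti-PD-1 replicate 1 there were 2337, with a lowest adjusted p of 0.117 in edgeR, and over the 16 fits without 1 of these tumours the number was 1041 to 2337. DESeq2 called 5 genes (0.0281%) and limma voom with sample weights called 0. The median log2 fold change of all genes was 0.02, and 53.7% of genes lay above 0. Every difference below is thus a fitted value with its error and not a call, unless DESeq2 is named.

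How small a difference the tumours could show varied between genes. The 95% interval of the fold change lay within 2-fold in either direction for 11858 genes, 66.7% of those tested. Among 321 tested members of 20 immune lists it did so for only 94 (29.3%), and their median SE was 0.48 against 0.25 over all genes. The lists hold 330 genes, and 9 had too few counts to be tested. Of the 321, 14 were higher and 5 lower at an unadjusted p below 0.05, together 5.92%, which is below the 8.12% of all genes.

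The immune lists divided evenly in direction. The median log2 fold change was above 0 in 10 lists and below 0 in 10, from -0.82 for natural killer cells to 0.56 for macrophage activation. The sign of the median held in each of 25 alternative fits for 8 of the 20 lists. For the other 12 it turned in at least 1 fit, in each case when a single tumour was left out and in some also with a muscle covariate, an Xist covariate or limma voom. The 8 that held were natural killer cells, mast cells, type I interferon, MHC class I, macrophage activation, monocytes and neutrophils, the interleukin-1 family and complement. In bulk tissue, fewer cells of a type and less RNA per cell cannot be told apart. In 16 of the 20 lists the tumours given anti-PD-1 spread more widely than the isotype tumours. Anti-PD-1 replicate 5 had the lowest level of all 16 tumours in 12 lists, and anti-PD-1 replicate 4 had the highest in 9.

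**Figure D1:**
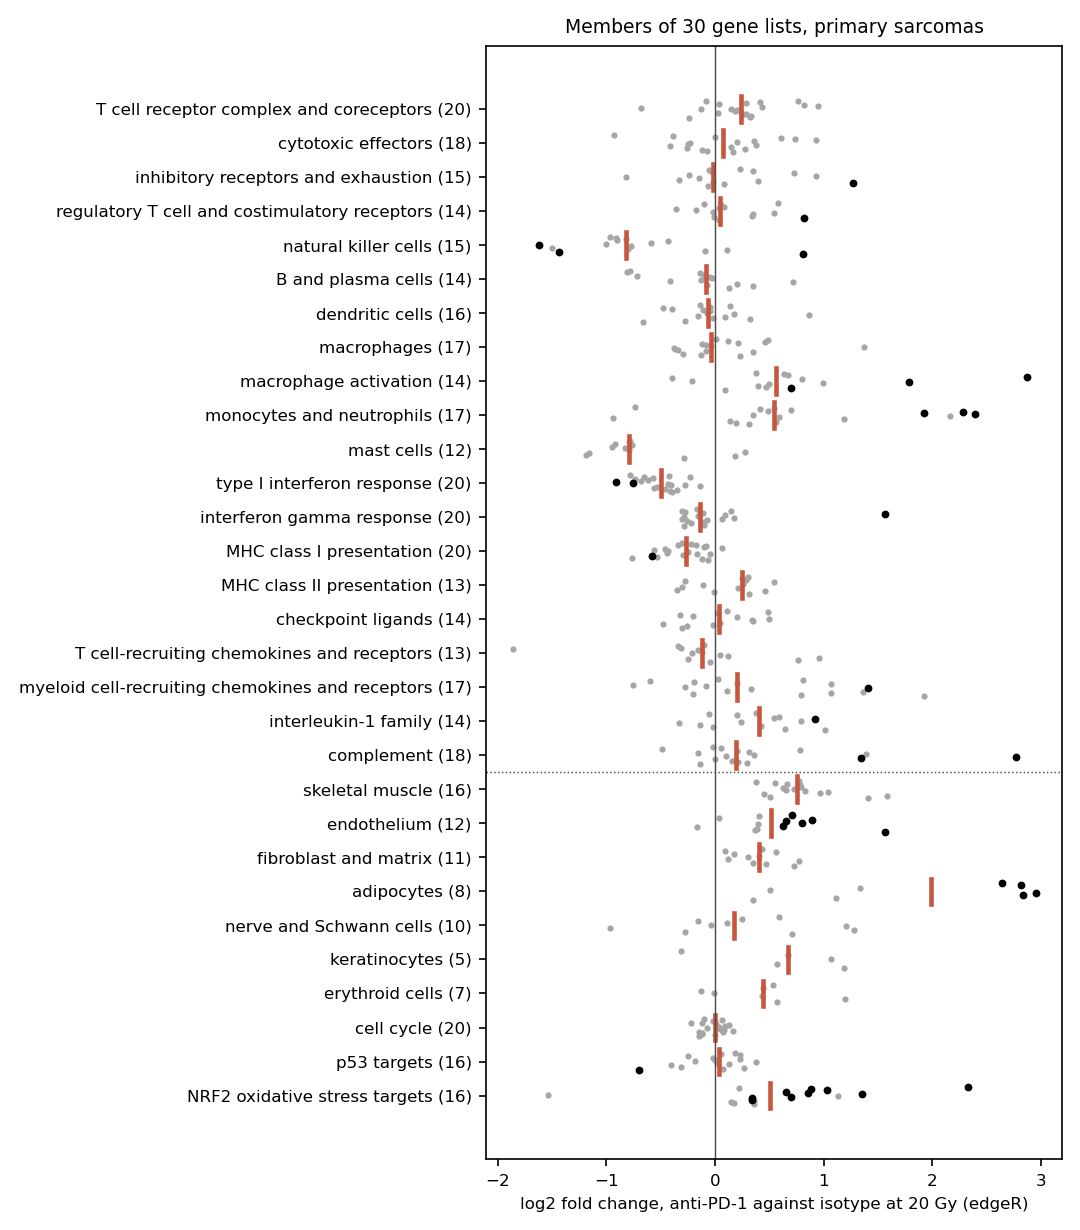
Log2 fold change (anti-PD-1 relative to isotype, 8 against 8 tumours at 20 Gy) of every tested member of 30 gene lists. Each grey point is a gene, black points have an unadjusted p below 0.05, the red line is the list's median, and the dotted line separates 20 immune lists from 10 others; natural killer cells have the lowest median (-0.82) and adipocytes the highest (1.99).

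The general leukocyte marker was near equal in value. Ptprc, which encodes CD45, was 101.1, 162 and 347 CPM with isotype and 60.1, 163 and 391 CPM with anti-PD-1. Its log2 fold change was -0.01 (SE 0.31), with a 95% interval from -0.65 to 0.63. The anti-PD-1 tumours lay both above (2 of 8) and below (3 of 8) the isotype range.

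T cell genes mostly had fitted values above 0, while the median tumours of the 2 groups were close. Cd3e, a chain of the T cell receptor complex, was 1.04, 3.90 and 13.6 CPM with isotype and 0.216, 3.69 and 47.4 CPM with anti-PD-1. The log2 fold change of Cd3e was 0.77 (SE 0.68, edgeR adjusted p = 0.756). The 2 groups overlapped broadly, and the value of 47.4 CPM came from anti-PD-1 replicate 4 alone. Cd8a, the coreceptor of cytotoxic T cells, was 0.884, 4.89 and 12.4 CPM with isotype and 0.608, 4.78 and 40.9 CPM with anti-PD-1, a log2 fold change of 0.82 (SE 0.68). The same tumour held the maximum. Its partner Cd8b1 had 0.95 (SE 0.69), and Trbc1, a constant segment of the receptor's beta chain, had -0.68 (SE 0.51).

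Over the list of the T cell receptor complex and coreceptors, 16 of 20 genes were above 0 with a median of 0.24, and 0 had an unadjusted p below 0.05. Without anti-PD-1 replicate 4 only 1 of 20 genes was above 0 and the median was -0.59. Without isotype replicate 5, the isotype tumour with the highest Cd3e, 19 of 20 were above 0 and the median was 0.61. Down-weighting divergent libraries in limma voom gave -0.60. The sign of the T cell list in these 16 tumours thus changed when 1 tumour was left out.

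Skeletal muscle RNA was also highest in anti-PD-1 replicate 4. The muscle list's mean level, on a log2(CPM + 0.5) scale, was 3.98 to 10.88 in isotype tumours and 0.80 to 12.03 in anti-PD-1 tumours, with the maximum in anti-PD-1 replicate 4, which also had the highest share of mitochondrial counts (2.32%, against 0.649 to 1.15% in the other 7). All 16 muscle genes were above 0 (median 0.75), and without replicate 4 all 16 were below 0 (median -0.79). The next highest muscle levels were 10.88 in isotype replicate 4 and 9.91 in anti-PD-1 replicate 8. Their T cell list levels were 2.15 and 1.48, against 4.87 in anti-PD-1 replicate 4. With the muscle level as a covariate the T cell list's median was -0.01. The part of adjacent tissue in the T cell values was not tested beyond these fits.

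Effector genes of T and NK cells showed no common direction. Gzmb, the protease granzyme B, was 38.4, 72.3 and 178 CPM with isotype and 4.92, 62.1 and 147 CPM with anti-PD-1, a log2 fold change of -0.39 (SE 0.59). No anti-PD-1 tumour exceeded the isotype maximum, and 2 were below its minimum. Ifng, the cytokine interferon gamma, stood at a few CPM or less, with 0.068, 0.620 and 2.74 CPM against 0.0392, 0.385 and 2.87 CPM and a log2 fold change of 0.38 (SE 0.76). Prf1, the pore-forming perforin, had 0.20 (SE 0.61), and Gzma had -0.93 (SE 0.69). The cytotoxic list had 10 of 18 genes above 0 and a median of 0.08.

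The antibody's own target and its ligand gave no larger values. Pdcd1, which encodes PD-1, was 0.703, 3.06 and 14.7 CPM with isotype and 0.412, 1.68 and 24.8 CPM with anti-PD-1 (log2 fold change 0.23, SE 0.64). Blocking the protein need not alter its transcript, so no gene in the table checks the antibody label. Cd274, which encodes PD-L1, was 31.8, 52.4 and 104.3 CPM against 11.4, 53.8 and 108.4 CPM, a log2 fold change of 0.11 (SE 0.39). The maxima were close, and 2 of 8 anti-PD-1 tumours were below the isotype minimum. Foxp3, the transcription factor of regulatory T cells, had 0.58 (SE 0.63), Icos, a costimulatory receptor, 0.55 (SE 0.59), and Tigit, an inhibitory receptor, 0.73 (SE 0.52).

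Of the 15 tested inhibitory receptor and exhaustion genes, 7 were above 0 with a median of -0.02. Only Nr4a2, a nuclear receptor induced by T cell receptor signalling and by many other stimuli, had an unadjusted p below 0.05 (8.62, 15.1 and 47.5 CPM with isotype, 13.1, 23.6 and 103.4 CPM with anti-PD-1, log2 fold change 1.27, SE 0.52). 1 of 15 is near the 5.14% of all genes on the higher side. Among 14 regulatory T cell and costimulatory genes, 9 were above 0 (median 0.04). Without anti-PD-1 replicate 4, 2 of 14 were above 0 and the median was -0.40. The one with an unadjusted p below 0.05 was Lrrc32, which anchors latent TGF-beta on regulatory T cells and also on endothelium and platelets, at 0.82 (SE 0.39), and 1 of 14 is again near that share. Checkpoint ligands had 8 of 14 genes above 0 and a median of 0.04.

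**Figure D2:**
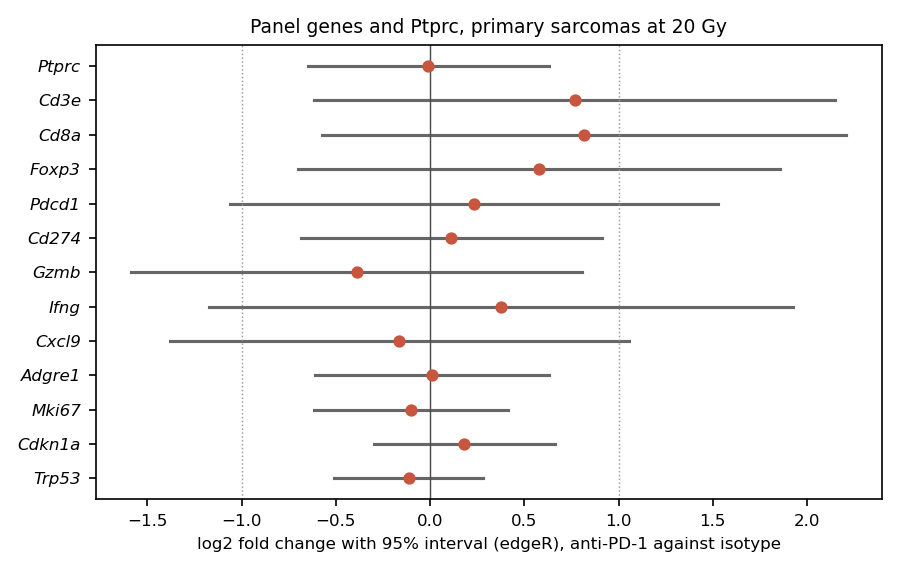
Log2 fold change (anti-PD-1 relative to isotype, 20 Gy, 8 against 8 tumours) of 13 genes for leukocytes, T cells, PD-1 and its ligand, interferon, macrophages, proliferation and p53, with 95% intervals; dotted lines mark 2-fold. All intervals cross 0; those of Ptprc, Cd274 and Adgre1 stay within 2-fold and those of Cd3e, Cd8a and Ifng do not.

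Natural killer (NK) cell genes had the lowest median of the immune lists. NK cells are innate lymphocytes that kill without antigen-specific receptors. Xcl1, a chemokine they release that attracts cross-presenting dendritic cells, was 1.09, 5.25 and 22.9 CPM with isotype and 0.196, 2.19 and 6.20 CPM with anti-PD-1. In log2 fold change this was -1.44 (SE 0.58, unadjusted p = 0.0191, edgeR adjusted p = 0.596). 7 of the 8 anti-PD-1 tumours were below the isotype median and 2 below its minimum.

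Klra4, a receptor of the Ly49 family, was 0.768, 17.8 and 45.5 CPM with isotype and 1.96, 5.48 and 18.9 CPM with anti-PD-1, a log2 fold change of -1.62 (SE 0.63, unadjusted p = 0.0159). 7 of 8 anti-PD-1 tumours were again below the isotype median, but the ranges overlapped fully at the low end. The Ly49 genes are near-identical copies, so reads may be split among them and single values are uncertain. Ncr1, the activating receptor NKp46 that defines NK cells, had -0.97 (SE 0.52); it was chosen after its value was seen.

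In the NK list 13 of 15 genes were below 0 (median -0.82), 2 of them (Xcl1 and Klra4) at an unadjusted p below 0.05, against 2.98% of all genes. Over the 25 alternative fits the number lower at that threshold ran from 1 to 7. Itga2, an integrin subunit on NK cells that platelets and epithelial cells also carry, went the other way at 0.81 (SE 0.32, unadjusted p = 0.0162) and was above the isotype median in 8 of 8 anti-PD-1 tumours. The list's median stayed below 0 over the alternative fits, from -1.24 to -0.48. It was closest to 0 without isotype replicate 5, the tumour with the highest Xcl1.

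Mast cell genes were also low in value without any of 12 having an unadjusted p below 0.05 in either direction. Mast cells store proteases and histamine and respond through the high-affinity IgE receptor. Of the 12, 10 were below 0 (median -0.79), among them Fcer1a and Ms4a2, subunits of that receptor (-1.19, SE 0.85, and -1.16, SE 0.76), and Tpsab1, a tryptase (-0.95, SE 0.78). Over the alternative fits the median ran from -1.31 to -0.31, with the value nearest 0 without isotype replicate 2.

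B cell and dendritic cell lists had medians near that of all genes. B and plasma cells had a median of -0.09 with 4 of 14 genes above 0. This median ran from -0.73 in limma voom to 0.24 without isotype replicate 5, where 11 of 14 were above 0, and was -0.60 without anti-PD-1 replicate 4. Ms4a1 and Pax5, which mark B cells, had values of -0.82 (SE 0.62) and -0.72 (SE 0.57), which were -0.27 for Ms4a1 without isotype replicate 5 and -0.27 for Pax5 without isotype replicate 8. Dendritic cells had a median of -0.06 with 5 of 16 above 0, from -0.37 in limma voom to 0.15 without isotype replicate 5. Ccl21a, a chemokine that draws T cells and dendritic cells to lymphoid tissue, was 0.907, 53.1 and 154 CPM with isotype and 0.0981, 7.71 and 64.1 CPM with anti-PD-1 (log2 fold change -1.87, SE 1.05). 7 of 8 anti-PD-1 tumours were below the isotype median. Ccl21a has near-identical copies in the mouse genome, so its counts are uncertain. The chemokine list it belongs to had 4 of 13 genes above 0 and a median of -0.12.

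**Figure D3:**
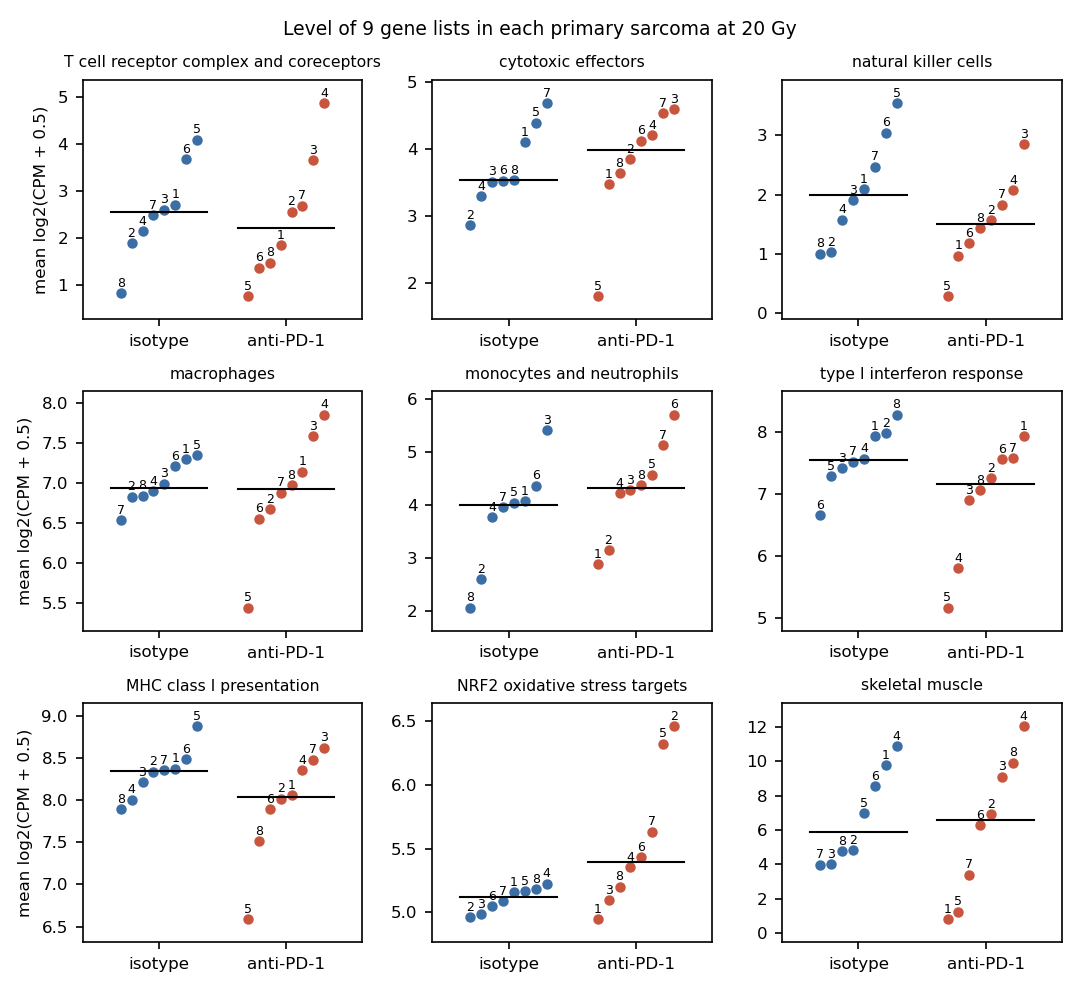
Mean log2(CPM + 0.5) of 9 gene lists in each of the 16 irradiated primary tumours, isotype in blue and anti-PD-1 in red, with the replicate number beside each point and the group median as a black line. Anti-PD-1 tumour 5 is lowest in several immune lists and anti-PD-1 tumour 4 highest for T cells and muscle, while for NRF2 targets 5 of 8 anti-PD-1 tumours lie above the isotype range.

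Type I interferon response genes were all lower in value with anti-PD-1. These genes are switched on by interferon alpha and beta through a transcription factor complex that binds the interferon-stimulated response element in their promoters. The promoters of Isg15 and Oas1g show what that element looks like in this list. Isg15 makes a ubiquitin-like protein that is attached to other proteins during antiviral defence. Oas1g is one of the oligoadenylate synthetases, which sense double-stranded RNA. The sequences are the 249 bases before the RefSeq start in GRCm38.p6, 5′ to 3′ on the gene's strand, at chr4:156200820-156201068 (minus strand) for Isg15 and chr5:120887615-120887863 (minus strand) for Oas1g. Capitals mark matches to GAAA, any 2 bases, GAAA, or on the other strand TTTC, any 2 bases, TTTC.

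Isg15: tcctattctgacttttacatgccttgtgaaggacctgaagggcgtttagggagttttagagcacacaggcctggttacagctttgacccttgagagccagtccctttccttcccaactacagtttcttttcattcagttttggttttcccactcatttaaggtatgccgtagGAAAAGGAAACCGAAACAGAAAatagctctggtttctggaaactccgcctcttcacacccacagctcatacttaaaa
Oas1g: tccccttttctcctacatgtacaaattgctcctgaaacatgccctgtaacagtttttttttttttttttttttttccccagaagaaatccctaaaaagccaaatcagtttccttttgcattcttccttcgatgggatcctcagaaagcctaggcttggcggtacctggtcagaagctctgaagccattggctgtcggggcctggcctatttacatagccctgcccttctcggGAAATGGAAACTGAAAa

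Isg15 holds 3 overlapping matches and Oas1g 2. In such stretches of 249 bases, read on both strands, 8 of the 14 list genes found in the RefSeq table had a match (57.1%), namely Isg15, Ifit1, Ifit3, Ifit3b, Oas1a, Oas1g, Oas3 and Rsad2, against 930 of 27025 genes overall (3.44%). A match describes the letters only.

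Oas2, another oligoadenylate synthetase (chromosome 5, 120730333 to 120749853, mm10), was 84.3, 110.6 and 173 CPM with isotype and 25.9, 67.8 and 160.2 CPM with anti-PD-1. 7 of the 8 anti-PD-1 tumours were below every isotype tumour, and anti-PD-1 replicate 7 alone was within the isotype range. The log2 fold change was -0.76 (SE 0.34, unadjusted p = 0.0339, edgeR adjusted p = 0.598). Oas1g was 31.3, 51.3 and 103.8 CPM with isotype and 9.12, 28.8 and 58.9 CPM with anti-PD-1, with 5 tumours below the isotype minimum and a log2 fold change of -0.91 (SE 0.41). Oas1a had -0.68 (SE 0.37). The 2 are close paralogs, and reads could be split between them.

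Isg15 itself was 175, 467 and 845 CPM against 62.2, 237 and 832 CPM, a log2 fold change of -0.78 (SE 0.53); it was named for its promoter, not by its p. Of the 20 genes in the list, 20 were below 0 (median -0.50), against 46.3% of all genes, and 2 had an unadjusted p below 0.05, against 2.98% of all genes on the lower side. Genes of one response vary together, so the 20 are not 20 separate observations. By tumour, the list's level was 6.66, 7.55 and 8.29 with isotype and 5.16, 7.16 and 7.93 with anti-PD-1 in mean log2(CPM + 0.5). Anti-PD-1 tumours 4 and 5 lay below the isotype range and the other 6 within it.

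The list's median stayed between -0.67 and -0.33 over 25 alternative fits, with 0 to 2 of 20 genes above 0. The number of genes with an unadjusted p below 0.05 ran from 0 to 4, and it was 0 without isotype replicate 1, anti-PD-1 replicate 4 or anti-PD-1 replicate 5.

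Oas1c, a further member of the family that was not on the list, was 1 of 2 genes among 17770 (0.0113%) whose groups did not overlap, 1 lower and 1 higher (0.00563% each). It was 6.96 to 14.9 CPM with isotype and 1.63 to 6.69 CPM with anti-PD-1 (log2 fold change -0.84, SE 0.33). The other, Gm10425, a predicted gene, was 0.544 to 1.19 CPM with isotype and 1.26 to 2.73 CPM with anti-PD-1 (1.04, SE 0.30). Both were singled out after their values were seen. Of the 12870 ways to regroup these tumours into 8 and 8, 2 separate completely any gene without ties. Among 17770 genes a few can therefore separate by chance, and the separation of these 2 is not evidence of a difference. The edgeR adjusted p was 0.596 for Oas1c and 0.549 for Gm10425.

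Cgas encodes the cytosolic DNA sensor whose product activates STING, upstream of type I interferon, and is itself interferon-inducible. It was among the 6 genes with the smallest p on the lower side. It was 17.2, 22.3 and 38.3 CPM with isotype and 12.6, 16.2 and 21.5 CPM with anti-PD-1, with 5 of 8 tumours below the isotype minimum and 8 of 8 below its median. Its log2 fold change was -0.58 (SE 0.18, unadjusted p = 0.00271, edgeR adjusted p = 0.556).

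MHC class I presentation genes were lower by a smaller amount. They load peptides from the cytosol onto the molecules that CD8 T cells recognise. Of 20 genes, 19 were below 0, against 46.3% of all genes, with a median of -0.27. H2-M3, a class I-like molecule that presents formylated peptides, was 30.2, 57.9 and 80.2 CPM with isotype and 9.87, 37.1 and 59.0 CPM with anti-PD-1. Its log2 fold change was -0.58 (SE 0.28, unadjusted p = 0.0455), the only 1 of 20 in the list with an unadjusted p below 0.05, which is near the 2.98% of all genes on the lower side. 3 of 8 anti-PD-1 tumours were below the isotype minimum. Psme2, a subunit of the proteasome activator PA28, had -0.44 (SE 0.23) and Psmb10, an immunoproteasome subunit, -0.43 (SE 0.27). The median stayed between -0.40 and -0.14 over the alternative fits, nearest 0 without anti-PD-1 replicate 5.

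Interferon gamma response genes were also mostly below 0, but less one-sidedly. Cxcl9, the chemokine that recruits CXCR3-positive T cells, was 212, 518 and 1608 CPM with isotype and 24.4, 420 and 1357 CPM with anti-PD-1, a log2 fold change of -0.16 (SE 0.60). The 2 ranges overlapped except for 2 anti-PD-1 tumours below the isotype minimum. Ido1, the tryptophan-degrading enzyme, was 0.106, 0.487 and 2.10 CPM against 0.246, 1.15 and 6.63 CPM (1.56, SE 0.70, unadjusted p = 0.0321). In all, 5 of 20 genes were above 0, against 53.7% of all genes. The median was -0.13, which turned to above 0 without isotype replicate 5 or without anti-PD-1 replicate 5.

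MHC class II genes, which present peptides to CD4 T cells, had 8 of 13 above 0 and a median of 0.25. Cd74, the invariant chain, had 0.54 (SE 0.58), and Ciita, the class II transactivator, 0.46 (SE 0.65). As with the T cell genes, the median changed sign without anti-PD-1 replicate 4, to -0.53 with 1 of 13 genes above 0.

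Myeloid cells were next. The macrophage list had a median of -0.03 with 8 of 17 genes above 0. Adgre1, which encodes the macrophage marker F4/80, was 148, 235 and 341 CPM with isotype and 31.1, 214 and 481 CPM with anti-PD-1 (0.01, SE 0.30, 95% interval -0.61 to 0.63). Anti-PD-1 tumours lay on both sides of the isotype range. Cd163, the haemoglobin scavenger receptor, had 1.37 (SE 0.69) and Csf1r, the receptor for the macrophage growth factor CSF1, had 0.49 (SE 0.27), and 0.13 without anti-PD-1 replicate 4.

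Macrophage activation genes had the highest immune median, 0.56, with 12 of 14 above 0 and 3 at an unadjusted p below 0.05 on the higher side, against 53.7% and 5.14% of all genes. Over the 25 alternative fits the number higher at that threshold ran from 1 to 7. The median was 0.25 without anti-PD-1 replicate 6 and 0.80 without isotype replicate 3, where that of monocytes and neutrophils was higher. Ptgs2, the cyclooxygenase that makes prostaglandin precursors, was 13.2, 50.6 and 111.8 CPM with isotype and 33.5, 82.9 and 487 CPM with anti-PD-1. The 3 tumours above the isotype maximum were anti-PD-1 replicates 2, 5 and 6, at 388, 237 and 487 CPM. The fitted log2 fold change was 1.79 (SE 0.55, unadjusted p = 0.00256, edgeR adjusted p = 0.556). Retnla, a secreted marker of interleukin-4-type activation that adipocytes also make, was at most 1.21 CPM with isotype and reached 25.6 CPM with anti-PD-1 (2.88, SE 1.10). Cd38, an NAD-consuming surface enzyme, had 0.70 (SE 0.31). Ptgs2 is also made by tumour cells and fibroblasts, and their part was not tested.

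Monocyte and neutrophil genes were above 0 in 15 of 17 tested members with a median of 0.54, 3 of them higher at an unadjusted p below 0.05, against 53.7% and 5.14% of all genes. Mmp8, neutrophil collagenase, was 1.19, 3.20 and 19.2 CPM with isotype and 0.847, 10.5 and 134.7 CPM with anti-PD-1, a log2 fold change of 2.28 (SE 0.78, unadjusted p = 0.00632, edgeR adjusted p = 0.573). The maximum was anti-PD-1 replicate 6, without which the log2 fold change was 0.94, and 6 of 8 anti-PD-1 tumours were above the isotype median. Mmp9, gelatinase B, was 45.1, 111.05 and 538 CPM against 37.4, 399 and 2109.6 CPM (1.93, SE 0.78), and Retnlg, a neutrophil resistin-like protein, had 2.39 (SE 0.97). S100a8 and S100a9, the abundant neutrophil calprotectin subunits, had 0.54 (SE 1.14) and 0.42 (SE 1.18). The list's median was 0.26 without anti-PD-1 replicate 6 and 1.10 without isotype replicate 3. Its number of genes higher at an unadjusted p below 0.05 ran from 1 to 6 over the 25 alternative fits.

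Factors that recruit or activate myeloid cells were mixed. Ccr3, the eotaxin receptor of eosinophils, was 1.54, 2.13 and 3.96 CPM with isotype and 0.719, 6.73 and 11.9 CPM with anti-PD-1, with 6 of 8 above the isotype maximum (1.41, SE 0.48, unadjusted p = 0.00589, edgeR adjusted p = 0.573). Csf3, the growth factor G-CSF, had 1.92 (SE 0.97), and 0.69 without anti-PD-1 replicate 6, and Ccl12, a monocyte chemokine, -0.76 (SE 0.38). The recruitment list had 11 of 17 genes above 0 and a median of 0.20, which was -0.16 without anti-PD-1 replicate 6.

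In the interleukin-1 family 10 of 14 tested genes were above 0 (median 0.40, and 0.11 without anti-PD-1 replicate 6). Il1rap, the shared accessory chain of the interleukin-1, interleukin-33 and interleukin-36 receptors, was 28.0, 44.8 and 73.0 CPM with isotype and 16.8, 113.1 and 130.6 CPM with anti-PD-1. 5 of 8 anti-PD-1 tumours were above every isotype tumour and 1 below. The log2 fold change was 0.92 (SE 0.30, unadjusted p = 0.0049, edgeR adjusted p = 0.56). Il1rl1, the interleukin-33 receptor, had 0.79 (SE 0.45), Il1r1 0.59 (SE 0.38), and Il1b, the cytokine itself, -0.06 (SE 0.65).

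Complement genes were above 0 in 14 of 18 (median 0.19). Without anti-PD-1 replicate 4, 10 of 18 were above 0 and the median was 0.012. Cfd, factor D, an adipocyte product also called adipsin, had 2.77 (SE 1.18) with its maximum of 56.2 CPM in anti-PD-1 replicate 4.

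Single genes with the smallest p came from outside the immune lists. On the higher side these were Pthlh, Kif21a, Nr4a1, Nqo1, Ahr and Zfand5, and on the lower side Rpl39l, Zcchc7, Rian, Crls1, Cgas and Ppcdc, all with a mean of 5 CPM or more in the group where they were higher. All 12 had edgeR adjusted p values from 0.549 to 0.558.

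Pthlh encodes parathyroid hormone-related protein, a secreted factor known for raising blood calcium in cancer (chromosome 6, 147252101 to 147264183, mm10). It was 0.476, 2.54 and 2.90 CPM with isotype and 0.738, 9.51 and 40.6 CPM with anti-PD-1. 6 of 8 anti-PD-1 tumours were above the isotype maximum, anti-PD-1 replicate 5 being the highest. The log2 fold change was 2.39 (SE 0.53, unadjusted p = 8.02e-05), and DESeq2 called it (adjusted p = 0.0167).

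Kif21a, a kinesin motor protein of microtubules (chromosome 15, 90933276 to 91049948), was 4.14, 8.70 and 16.3 CPM with isotype and 9.38, 24.1 and 37.3 CPM with anti-PD-1. 8 of 8 anti-PD-1 tumours were above the isotype median and 6 above its maximum. The log2 fold change was 1.32 (SE 0.29, unadjusted p = 8.66e-05), and DESeq2 called it (adjusted p = 0.0275).

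Nr4a1, an orphan nuclear receptor induced within hours by growth factors, stress and T cell receptor signalling, was 13.0, 22.2 and 28.6 CPM with isotype and 20.0, 46.7 and 236 CPM with anti-PD-1. 7 of 8 anti-PD-1 tumours were above every isotype tumour, the most of any of the 6. Its log2 fold change was 1.70 (SE 0.41, unadjusted p = 0.000228). Ahr, the aryl hydrocarbon receptor, a transcription factor that responds to planar aromatic compounds and tryptophan products, was 13.2, 25.3 and 38.2 CPM against 18.5, 57.3 and 116.2 CPM (1.40, SE 0.35). Zfand5, a zinc finger protein of the proteasome pathway, was 65.3, 85.5 and 107.9 CPM against 97.6, 106.5 and 153 CPM (0.44, SE 0.11), with 8 of 8 above the isotype median.

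On the lower side, 8 of 8 anti-PD-1 tumours were below the isotype median for each of the 6 genes. Zcchc7, a subunit of a nuclear RNA surveillance complex, was 19.1, 21.4 and 30.1 CPM with isotype and 13.8, 17.0 and 21.0 CPM with anti-PD-1. 7 of 8 were below the isotype minimum, with a log2 fold change of -0.39 (SE 0.11, unadjusted p = 0.00159). Crls1, cardiolipin synthase of mitochondria, was 19.2, 25.99 and 40.5 CPM against 14.8, 18.4 and 25.4 CPM (-0.56, SE 0.17), with 5 of 8 below the isotype minimum. Ppcdc, an enzyme of coenzyme A synthesis, had -0.57 (SE 0.18).

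Rian, an imprinted long noncoding RNA of the Dlk1 and Dio3 region on chromosome 12, was 72.1, 174 and 289 CPM with isotype and 21.2, 83.6 and 120.6 CPM with anti-PD-1 (-1.13, SE 0.33, unadjusted p = 0.00163). The ranges overlapped, with 2 of 8 anti-PD-1 tumours below the isotype minimum. Rpl39l, a ribosomal protein paralog best known from testis, was 0.260, 6.88 and 61.4 CPM with isotype and 0.0992, 0.434 and 1.05 CPM with anti-PD-1 (-5.06, SE 1.44). DESeq2 called it (adjusted p = 0.0275). Isotype tumours ranged from 0.260 CPM in replicate 7 to 61.4 CPM in replicate 3. Its counts are uncertain because ribosomal protein genes have many near-identical copies. Snap25, a synaptic vesicle fusion protein, was also called by DESeq2 (adjusted p = 0.0275), with 0.0228, 1.16 and 45.5 CPM in anti-PD-1 tumours and a highest isotype value of 1.17 CPM. Anti-PD-1 replicate 5 held the 45.5 CPM, and without it the log2 fold change was 2.26, against 4.44 with it.

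**Figure D4:**
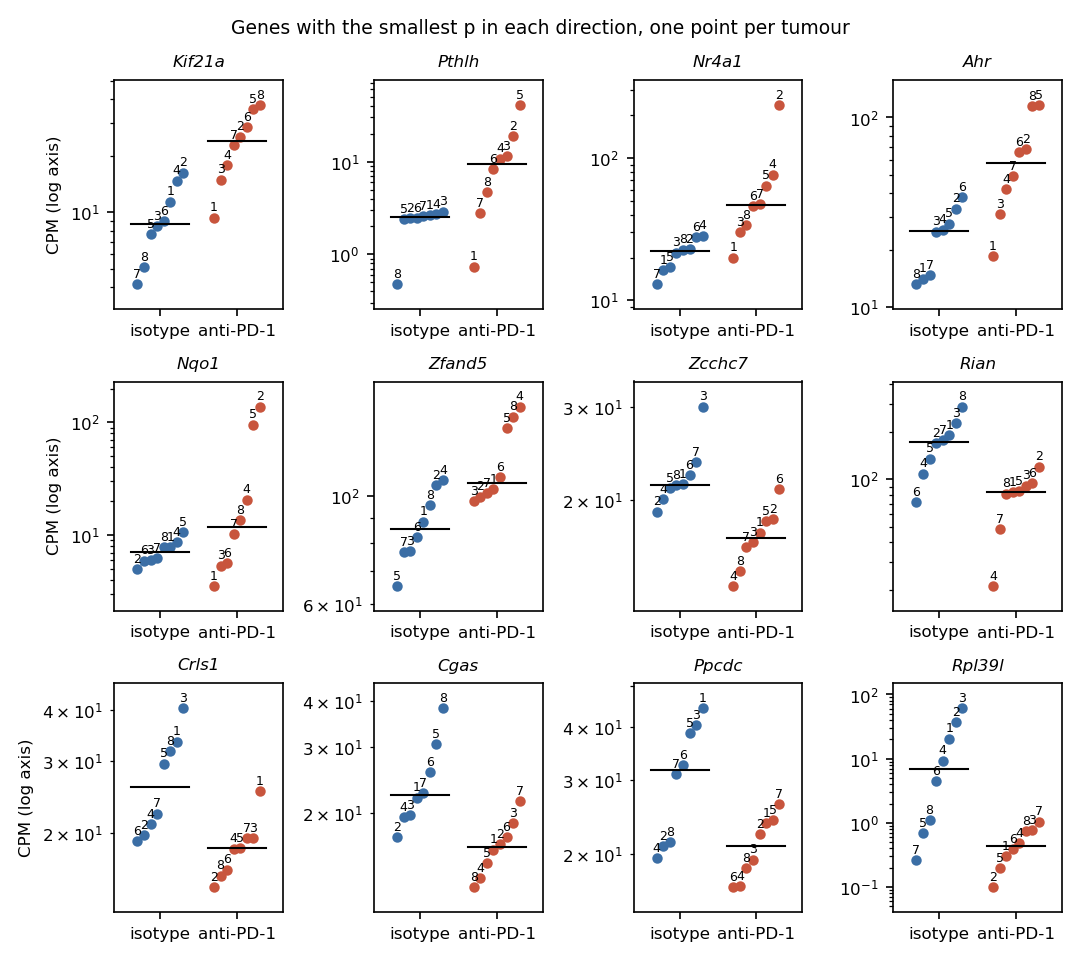
CPM on a log axis of the 6 genes higher and the 6 lower with the smallest p in each of the 16 tumours, isotype against anti-PD-1. For Nr4a1 7 of 8 anti-PD-1 tumours lie above every isotype tumour, for Zcchc7 7 of 8 lie below, and Nqo1 is high in anti-PD-1 tumours 2 (138.2 CPM) and 5 (95.9 CPM).

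Nqo1, a quinone-reducing enzyme, is a textbook target of NRF2, the transcription factor that is freed from KEAP1 under oxidative or electrophilic stress and binds antioxidant response elements. Its list was the one with the most genes at an unadjusted p below 0.05. The upstream sequences of Gclm, the modifier subunit of the enzyme that starts glutathione synthesis, and Txnrd1, thioredoxin reductase, both carry the core of that element. They are the 249 bases before the RefSeq start in GRCm38.p6, 5′ to 3′ on the plus strand, at chr3:122245307-122245555 for Gclm and chr10:82858956-82859204 for Txnrd1. Capitals mark a match to TGACNNNGC or its reverse complement GCNNNGTCA.

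Gclm: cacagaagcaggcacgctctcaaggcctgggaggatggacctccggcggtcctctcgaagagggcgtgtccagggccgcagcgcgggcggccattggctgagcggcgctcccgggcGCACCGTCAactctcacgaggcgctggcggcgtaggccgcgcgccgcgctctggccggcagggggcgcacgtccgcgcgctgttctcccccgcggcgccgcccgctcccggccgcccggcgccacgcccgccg
Txnrd1: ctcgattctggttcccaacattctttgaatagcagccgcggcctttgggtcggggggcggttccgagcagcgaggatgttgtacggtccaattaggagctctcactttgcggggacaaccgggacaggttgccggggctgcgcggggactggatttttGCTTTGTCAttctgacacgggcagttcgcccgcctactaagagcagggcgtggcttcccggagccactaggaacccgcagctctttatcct

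Both matches are of the reverse complement. In such stretches of 249 bases, read on both strands, 4 of the 15 list genes in the RefSeq table had a match (26.7%; Gclm, Txnrd1, Gsta3 and G6pdx), against 3089 of 27025 genes (11.4%). The motif is short, and a match does not mark binding.

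Nqo1 (chromosome 8, 107388225 to 107403206) was 4.98, 7.07 and 10.7 CPM with isotype and 3.55, 11.9 and 138.2 CPM with anti-PD-1. 4 of 8 anti-PD-1 tumours were above the isotype maximum, namely replicates 2 (138.2 CPM), 5 (95.9 CPM), 4 (20.7 CPM) and 8 (13.6 CPM). Its log2 fold change was 2.33 (SE 0.57, unadjusted p = 0.000295), and DESeq2 called it (adjusted p = 0.0281).

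Gclm was 24.6, 31.0 and 51.1 CPM with isotype and 30.1, 42.2 and 199 CPM with anti-PD-1 (1.03, SE 0.28, unadjusted p = 0.00105). Only replicates 2 and 5 were above the isotype range, at 199 and 123.6 CPM. Txnrd1 was 109.4, 140.2 and 189 CPM against 118.1, 208 and 431 CPM (0.65, SE 0.19, unadjusted p = 0.00203), with 5 of 8 above the isotype maximum. Gclc, the catalytic partner of Gclm, had 0.88 (SE 0.30), Slc7a11, the cystine importer, 1.36 (SE 0.48), and Srxn1, sulfiredoxin, 0.86 (SE 0.38); these 3 were named after their values were seen.

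The NRF2 list was drawn up with earlier results of these data known. Its genes vary together, so the tested members are not separate observations. Of 16 tested NRF2 targets, 15 were above 0 (median 0.51), and 9 had an unadjusted p below 0.05 on the higher side, against 5.14% of all genes. Besides those named they were Gstm1, a glutathione transferase, and G6pdx and Pgd, enzymes that make NADPH. Gsta3 alone was below 0, at -1.54 (SE 0.83), and Hmox1, haem oxygenase, also regulated by haem, had 0.22 (SE 0.32). By tumour, the list's level was 4.97, 5.12 and 5.23 in isotype tumours and 4.95, 5.40 and 6.46 in anti-PD-1 tumours. The isotype tumours were close together, and 5 of 8 anti-PD-1 tumours lay above them.

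Anti-PD-1 tumours 2 and 5 were the highest. With both left out, an alternative chosen after seeing the data, 15 of 16 genes were still above 0, the median was 0.26, and 2 had an unadjusted p below 0.05 on the higher side and 1 on the lower. In that fit Nqo1 had 0.44, Gclm 0.20 and Txnrd1 0.29, with edgeR adjusted p values of 0.711, 0.679 and 0.60. The list stayed above 0 in each of the 25 other alternatives, with medians from 0.38 to 0.65.

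Markers of other cells in the calf were set beside the immune lists. Endothelial genes were above 0 in 11 of 12 (median 0.52), and 6 had an unadjusted p below 0.05, all higher, against 53.7% and 5.14% of all genes: Pecam1, Tek, Tie1, Flt1, Esam and Vwf. Flt1, a VEGF receptor, was 17.3, 27.2 and 47.4 CPM with isotype and 22.8, 54.4 and 73.0 CPM with anti-PD-1, with 6 of 8 above the isotype maximum (0.80, SE 0.27, unadjusted p = 0.00577, edgeR adjusted p = 0.573). Pecam1, CD31, was 44.4, 85.7 and 129.1 CPM against 44.1, 121.1 and 311 CPM (0.71, SE 0.30). The list's median ran from 0.41 to 0.71 over the alternative fits, and only 1 gene had an unadjusted p below 0.05 without anti-PD-1 replicate 4.

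Fat cell genes had the highest median of all lists, 1.99, with 8 of 8 tested genes above 0 and 4 at an unadjusted p below 0.05 on the higher side (Adipoq, Plin1, Lep and Cidec), against 53.7% and 5.14% of all genes. Their levels were low: Plin1, which coats lipid droplets, was 0, 0.0712 and 2.35 CPM with isotype and 0, 1.20 and 11.1 CPM with anti-PD-1 (2.82, SE 1.16). The median was 0.85 without anti-PD-1 replicate 4 and 3.39 without isotype replicate 4. Over the 25 alternative fits the number of fat cell genes higher at an unadjusted p below 0.05 ran from 1 to 5. Matrix genes of fibroblasts, which sarcoma cells also express, were above 0 in 11 of 11 (median 0.41) with none at an unadjusted p below 0.05. Without anti-PD-1 replicate 8, 6 of 11 were above 0 and the median was 0.0011. Col3a1, a fibrillar collagen, was at least 2671 CPM in each of the 16 tumours. Whether unequal amounts of adjacent tissue enter the immune values was not tested beyond the fit with a muscle covariate.

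Proliferation and p53 target lists had medians near 0. Mki67, a marker of cycling cells, was 46.4, 101.1 and 121.3 CPM with isotype and 56.1, 78.1 and 164 CPM with anti-PD-1 (-0.10, SE 0.25). 7 of 8 anti-PD-1 tumours were below the isotype median, and replicate 5 was the highest of all. The cell cycle list had 11 of 20 genes above 0 and a median of 0.00. Over the alternative fits 0 to 15 of its genes were above 0. Its median ran from -0.16 without anti-PD-1 replicate 5 to 0.17 without isotype replicate 8. Trp53, deleted in the tumour cells of both groups, was 24.1, 29.0 and 60.5 CPM against 21.5, 31.6 and 52.5 CPM (-0.11, SE 0.19). Unrecombined host cells and remaining exons can give such counts. Cdkn1a, the cell cycle inhibitor p21, had 0.18 (SE 0.24), and 9 of 16 p53 target genes were above 0 (median 0.04).

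The same antibody comparison was available in unirradiated primary tumours (8 against 8) and in irradiated allografts (4 against 4), which were grown from 1 sarcoma cell line injected into the muscle of syngeneic mice. In edgeR neither had a gene below an adjusted p of 0.05 (0 of 17770 and 0 of 19327), and 412 (2.32%) and 514 (2.66%) genes had an unadjusted p below 0.05. These comparisons share no tumour with the one above. Across genes, the log2 fold changes at 20 Gy and 0 Gy correlated with Pearson's r = 0.03 (Spearman's rho 0.06), and those in primary tumours and allografts with r = -0.14 (rho -0.21); genes are not independent of each other, and these are descriptions.

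Without radiation all 20 T cell genes were above 0 with a median of 1.01, where 42.5% of all genes were above 0, against a median of 0.24 after 20 Gy. In irradiated allografts 19 of 20 were above 0 with a median of 0.81, where 51.6% of all genes were above 0. The interferon gamma list had medians of 0.73 at 0 Gy, -0.13 at 20 Gy and 0.25 in allografts. For NK cells the values were -0.19, -0.82 and 0.72, and for type I interferon -0.13, -0.50 and -0.21. NRF2 targets had -0.02 at 0 Gy and -0.20 in allografts against 0.51.

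The differences themselves were tested per gene. For antibody by dose, 0 of 17770 genes passed in edgeR (lowest adjusted p 0.971), 756 (4.25%) had an unadjusted p below 0.05, DESeq2 called 1, Cck, and limma voom 0. The difference in log2 fold change, 20 Gy minus 0 Gy, was -1.44 (SE 0.85) for Cxcl9, -0.49 (SE 0.95) for Cd3e, 2.59 (SE 0.72) for Pthlh and 2.21 (SE 0.78) for Nqo1, each with an edgeR adjusted p of 0.971. Pthlh and Nqo1 were picked by their p at 20 Gy, which enters this difference, so their values here are not separate evidence.

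For tumour kind by antibody at 20 Gy, 0 of 19327 genes passed in edgeR (lowest adjusted p 0.512), 1864 (9.64%) had an unadjusted p below 0.05, and DESeq2 called 2, Dmp1 and Skint3. The number at an unadjusted p below 0.05 depended on single allografts: 811, 962 and 3286 without anti-PD-1 replicate 3, 2 or 4, and 1026 without isotype replicate 4. Limma voom with sample weights called 1201 genes, 494 higher and 707 lower, with the same counts as input. The difference, primary minus allograft, was -2.61 (SE 0.65) for Rian, 1.49 (SE 0.46) for Kif21a, 2.75 (SE 0.84) for Pthlh, 2.51 (SE 0.84) for Nqo1, -2.16 (SE 0.90) for Xcl1 and -1.69 (SE 0.80) for Ncr1. In edgeR these 6 had adjusted p values of 0.512 or more. All 6 were picked by their p or value in the primary comparison at 20 Gy. That comparison is part of this difference, so these values are not separate evidence.

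**Figure D5:**
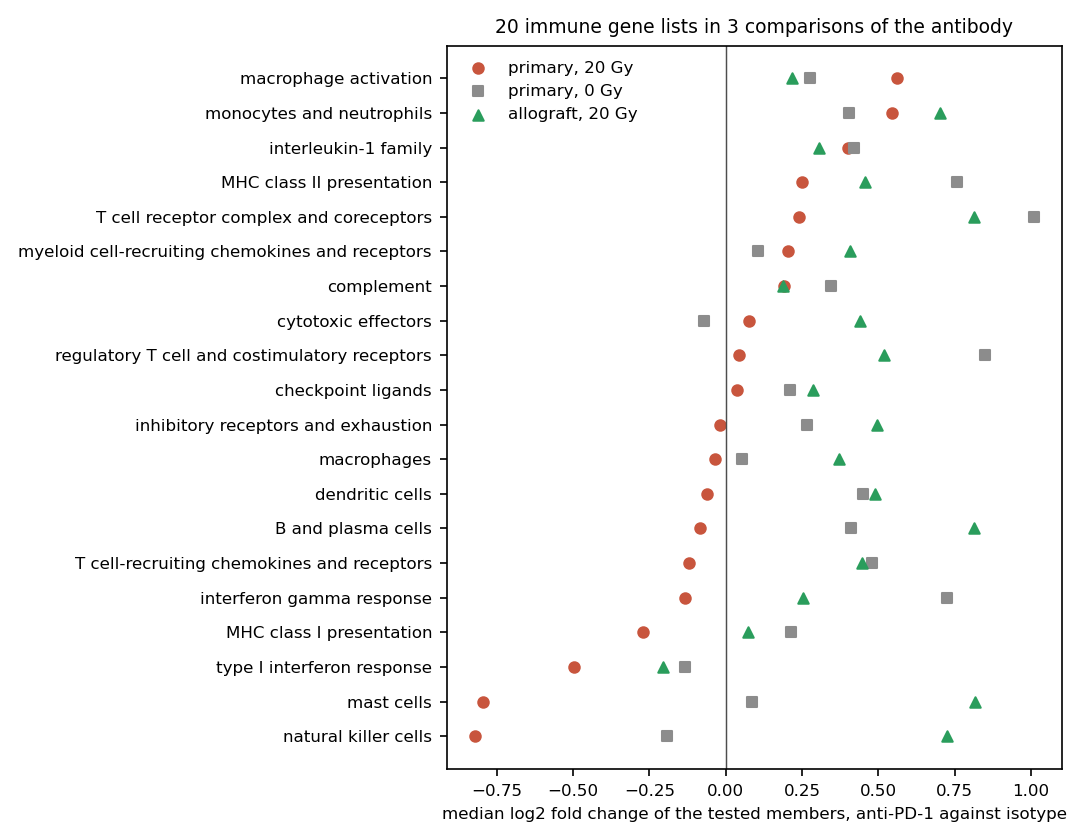
Median log2 fold change (anti-PD-1 relative to isotype) of 20 immune lists in irradiated primary tumours (red circles), unirradiated primary tumours (grey squares) and irradiated allografts (green triangles). T cell genes have 0.24, 1.01 and 0.81 in that order, and natural killer cell genes -0.82, -0.19 and 0.72.

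Depth and composition were compared over the same 16 libraries. Totals were 34.7 to 51.4 M counts with anti-PD-1 and 31.8 to 46.5 M with isotype (exact permutation test over 12870 regroupings, two-sided p = 0.392). Shares of mitochondrial counts (exact permutation p = 0.938) and of Gm42418, a gene that overlaps ribosomal RNA (exact permutation p = 0.515), gave no lower p; adjusted over the 3 measures the values were 0.772 to 0.938. Any 2 tumours of the same group differed far beyond sampling noise, with a chi-square of 127.3 to 1095 per degree of freedom over 56 pairs, so each library was counted once. Isotype replicate 2 was the only 1 of the 16 whose animal number began with 5, and leaving it out is among the alternatives.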

How the data were processed

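Bulk RNA-seq was available for 48 mouse sarcomas, 16 of which enter the comparison described above. The values deposited by the authors are raw counts, in 1 table of 36854 genes by 48 samples whose name speaks of a first run. Per the labels' protocols, RNA with an integrity number above 7 was poly(A)-selected and made into stranded libraries. Trimmomatic 0.36, STAR 5.5.4b, HTSeq and mm10 are listed in the submitters' processing notes. The annotation and the strand setting of the counting are not given in the sources used here, so values of genes that overlap, lie antisense to each other or have close copies are uncertain.

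Symbols and positions came from GENCODE M21 by gene identifier (36796 named, 58 not). All 4 groups of primary tumours (32 tumours) were fitted together. Filtering was by filterByExpr, scaling by TMM, and the test edgeR's quasi-likelihood F test with Benjamini-Hochberg adjustment over 17770 genes. The interaction with tumour kind used all 48 tumours (19327 genes). The SE is the log2 fold change divided by the square root of F, and intervals are at 95%. The biological coefficient of variation was 0.50. At totals of 31.8 to 51.4 M counts, counting error matters mainly below 1 CPM. The labels name no molecular identifiers, so duplicate reads are not separated. P-values measure the spread between these tumours.

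Of 462 list genes, 457 matched by symbol, 4 by synonym and 1 did not. The members and lists were chosen with earlier results of these data known. Named genes were the 6 higher and 6 lower with the smallest p whose higher group averaged 5 CPM or more, a panel of 12, the 3 smallest p in each list, genes called by edgeR or DESeq2, and Ptprc; others are stated as such or are further members of a list given for their role. Alternatives were each tumour left out, another scaling, a filter and no filter, a fit of 16 tumours, muscle and Xist covariates, DESeq2 and limma voom with sample weights. Software was R 4.3.3, edgeR 4.0.16, limma 3.58.1, DESeq2 1.42.0, and, in Python 3.11.15, matplotlib 3.10.9, scipy 1.17.1, numpy 2.4.6 and pandas 2.3.3. The steps were tested on simulated data. A few genes of the lists are not reported here by name.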

Additional observations from a re-analysis of the deposited data

Results flagged for a closer look

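In 298 sets of 8 values (named genes, lists and library measures, in each group), 26 had 1 tumour far from the other 7: its gap to the nearest of the others, as a share of the whole range, exceeded Dixon's 95% critical value. Gene values were compared as log2(CPM + 0.5). Chance marks about 1 in 20 such sets. Of the 26, 12 were in the anti-PD-1 group and 14 in the isotype group.

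Anti-PD-1 replicate 5 accounted for 6. It had 6.26 CPM of Ccl12 against 42.6 to 186.5 CPM in the other 7, 4.92 CPM of Gzmb against 30.7 to 147 CPM, and 56.1 CPM of Irgm1, an interferon-inducible GTPase, against 187 to 446 CPM. It had 163.6 CPM of Mki67 against 56.1 to 90.3 CPM. Its mean level was 1.80 for the cytotoxic list (3.48 to 4.60 in the others) and 3.20 for checkpoint ligands (4.27 to 4.98).

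Anti-PD-1 replicate 4 had 3.00 for nerve and Schwann cell genes (1.09 to 1.93 in the others) and 2.32% mitochondrial counts. Anti-PD-1 replicate 2 had 1.81 CPM of Tnfsf9, replicate 6 17.5 CPM of Cck, replicate 7 1.53 CPM of Slc4a1 and replicate 8 6.17 CPM of Pkp1.

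Isotype replicate 4 had 2.38 CPM of Cidec, 0.305 CPM of Lep and 2.35 CPM of Plin1, all fat cell genes, and 2.60 CPM of Cdh19, a Schwann cell gene. Isotype replicate 5 was at 7.83 for the interferon gamma list (6.01 to 6.77 in the others), 2.74 CPM for Ifng, 3.61 CPM for Pkp1 and 1.17 CPM for Snap25. Isotype replicate 8 was at 0.476 CPM for Pthlh (2.42 to 2.90 in the others), 0.771 CPM for Ccl22 and 4.36 for the complement list (5.24 to 5.83). Isotype replicate 3 was at 13.9 CPM for Cck (0 to 0.498), 34.2 CPM for Mcm5 and 30.1 CPM for Zcchc7.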

How the results depend on the processing

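No paired analysis was possible because replicates were numbered in accession order, so that equal numbers pair nothing. DESeq2 called 5 genes for anti-PD-1 against isotype at 20 Gy, 1 for antibody by dose and 2 for tumour kind by antibody, and limma voom with sample weights called 1201 for the last, each against 0 in edgeR. The cause was not tested. The 21 other alternative counts and the 72 with 1 tumour left out stayed at 0 calls. List medians kept within the spread between tumours in 271 alternative fits, and in 478 with 1 tumour left out. The exceptions were 2 fits of the adipocyte list, 0.85 without anti-PD-1 replicate 4 and 3.39 without isotype replicate 4. That spread was 0.46 to 1.24 in the immune lists, larger than most of their medians, so this measure is wide. A median could turn its sign and still count as kept, as the T cell list did (0.24, and -0.59 without anti-PD-1 replicate 4). Depth limits genes below about 1 CPM, among them Ifng, Snap25, Cck and the fat cell genes.

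Because edgeR called 0 genes, no gene that was lost or reversed could have been one of its calls. In log2 fold change, limma voom with sample weights, which gives divergent tumours less weight, reversed Cd3e (-0.58), Cd8a (-0.26), Cd8b1 (-0.26), Foxp3 (-0.33), Icos (-0.29), Pdcd1 (-0.76), Cxcr6 (-0.74), Ifng (-0.41), Clec10a (-0.45), Ccl22 (-0.12), Cd74 (-0.23), Ciita (-0.28), Adgre1 (-0.20), Sox10 (-0.15), Mb (-1.56), Atp2a1 (-0.93) and Eno3 (-0.049). The muscle covariate reversed Adgre1 (-0.055), Ciita (-0.040), Pdcd1 (-0.16), Mb (-1.31) and Atp2a1 (-0.28), and DESeq2 reversed Mb (-1.32). Ptprc, at -0.01, was 0.00156 with only the 16 tumours, 0.00709 with the size factors of DESeq2, 0.00255 with no filter and 0.00716 in DESeq2. For antibody by dose, Skint3 was 0.20 with the muscle covariate, 0.35 with the Xist covariate and 0.21 in limma voom.

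Leaving out 1 tumour at a time turned the sign of the following, given as lowest to highest. Without anti-PD-1 replicate 4 the lowest values were those of Cd3e (-0.42 to 1.10), Cd8a (-0.11 to 1.12), Cd8b1 (-0.066 to 1.29), Foxp3 (-0.52 to 1.02), Icos (-0.40 to 0.90), Pdcd1 (-0.71 to 0.74), Cd274 (-0.046 to 0.29), Cxcr6 (-0.71 to 1.23), Ifng (-0.096 to 1.08), Clec10a (-0.083 to 1.15), Ccl22 (-0.055 to 0.48), Cd74 (-0.28 to 0.94), Ciita (-0.30 to 0.99), Cdkn1a (-0.019 to 0.32), Trp53 (-0.25 to 0.041), Ptprc (-0.23 to 0.16), Mb (-1.35 to 2.27), Atp2a1 (-0.83 to 2.06) and Eno3 (-0.27 to 2.48). Other tumours decided Adgre1 (-0.21 to 0.18), Cxcl9 (-0.54 to 0.25), Mcm2 (-0.024 to 0.28), Cdh19 (-0.26 to 1.69), Pkp1 (-0.49 to 3.68), Cck (-1.39 to 3.78) and Skint3 (-0.98 to 0.66). For antibody by dose Skint3 ran from -0.68 to 0.94, and for tumour kind by antibody Cck ran from -1.69 to 3.50.

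Leaving out 1 tumour moved these further values by over 1.5 times at an unchanged sign. Without anti-PD-1 replicate 4 Tigit was 0.097, Cd38 0.43, Pecam1 0.42, Cfd 1.56, Cidec 1.81 and Trbc1 -1.05 (log2 fold change). Without anti-PD-1 replicate 2 Nr4a1 was 1.09 and Gclm 0.57, without replicate 5 Mki67 -0.31, without replicate 6 Retnlg 1.22, Il1rl1 0.51 and Mki67 -0.036, without replicate 7 Retnla 1.32, and without replicate 8 Col3a1 0.076. Without anti-PD-1 replicate 3 Gzma was -1.47, Gzmb -0.65, Fcer1a -1.80, Ms4a1 -1.23 and Tpsab1 -1.41. Without isotype replicate 5 Xcl1 was -0.89, Gzma -0.47, Gzmb -0.19, Fcer1a -0.74, Trbc1 -0.33, Psmb10 -0.29 and Psme2 -0.26. Without isotype replicate 2 Ms4a2 was -0.57, Tpsab1 -0.26 and Col3a1 0.88, and without isotype replicate 4 Plin1 was 4.44, Lep 4.54, Cidec 5.05 and Cfd 4.23. The number of genes at an unadjusted p below 0.05 was 2685 with no filter, where 35751 genes were tested, against 1443. For antibody by dose it was 1653 with no filter, 453 at a mean of at least 1 CPM, 1172 with all 48 tumours and 1223 in limma voom, against 756. For tumour kind by antibody limma voom gave 5565 against 1864.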
